A study of Mus musculus with 2 samples.

Results

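HDAC4 peaks lay at the genes of 2 proteins whose families bind HDAC4, Mef2a and Ywhaz. They were found as the rows of the deposited peak table whose gene name is Mef2a or Ywhaz, and each gene had exactly 1 peak, so there were 2 of 229 peaks. The rows were chosen from the table itself, after results of these data were known. Their heights, fold enrichments and −log10 values are therefore a description of the rows and were not tested. Of 21842 protein-coding genes in the reference annotation, 164 (0.751%) were named by a peak that was not intergenic, and nothing is read from the presence of these 2 genes among them.

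The peaks came from chromatin immunoprecipitation followed by sequencing (ChIP-seq) in C2C12 cells, an immortalized mouse myoblast line of C3H origin at passages 30-32. The cells proliferated for 24 hours in growth medium (GM) rich in serum and were then fixed with formaldehyde. Sheared chromatin was precipitated with the anti-HDAC4 antibody sc-11418 (Santa Cruz), and the input is chromatin sequenced without precipitation. There was 1 HDAC4 ChIP library and 1 input library, both from cells with no other treatment, and there were no replicates. Once repeated positions were collapsed, 1920168 ChIP tags and 17798166 input tags stood behind the peaks. The rabbit IgG control named in the protocol was not analysed here. A peak table holds no expression, so the cell type could not be checked against its markers.

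HDAC4 is a class IIa histone deacetylase with no known DNA-binding domain of its own, and it reaches DNA through other proteins. Its best known partners are the MEF2 transcription factors, MADS-box proteins that switch on muscle genes together with MyoD and myogenin, and that HDAC4 represses. Mef2a encodes one of these factors. The 14-3-3 proteins bind class IIa deacetylases after CaM kinase, protein kinase D or salt-inducible kinases have phosphorylated them, and hold them in the cytoplasm away from MEF2. Ywhaz encodes the zeta member of the 14-3-3 family. One gene thus encodes a nuclear target of HDAC4 and the other a carrier that keeps HDAC4 out of the nucleus.

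The sequences under the peaks differed in kind, and they are shown because the position of each peak in its gene and its base composition rest on them. The Mef2a run is chr7:67372851-67373108 on the minus strand of GRCm38, the build also called mm10. It covers 250 of the 259 bases of the peak before the main transcription start and the first 8 bases after it, and its capitals mark a MEF2 site. The Ywhaz run is chr15:36792868-36793167, also on the minus strand. It is intronic, and its capitals mark the reverse complement of a GC box (GGGCGG, the motif bound by Sp1). Both read 5′ to 3′ in the direction of the gene, from the RefSeq promoter table and the genome sequence of GRCm38.p6.
Mef2a: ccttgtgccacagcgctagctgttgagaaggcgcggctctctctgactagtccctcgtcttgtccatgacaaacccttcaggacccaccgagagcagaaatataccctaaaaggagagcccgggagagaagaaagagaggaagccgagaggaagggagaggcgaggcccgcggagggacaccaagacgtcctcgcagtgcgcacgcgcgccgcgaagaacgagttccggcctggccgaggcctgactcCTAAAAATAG
Ywhaz: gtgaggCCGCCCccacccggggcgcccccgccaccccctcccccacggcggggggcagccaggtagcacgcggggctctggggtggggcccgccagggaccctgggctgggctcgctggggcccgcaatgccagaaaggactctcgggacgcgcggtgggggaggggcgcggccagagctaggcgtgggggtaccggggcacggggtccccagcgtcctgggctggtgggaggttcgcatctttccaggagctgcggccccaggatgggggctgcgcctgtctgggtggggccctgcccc

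The Mef2a run had 60.1% G and C, 21 CpGs in 258 bases and 0.904 times the CpGs that its base composition alone would give (observed over expected). The Ywhaz run had 77.7% G and C and 24 CpGs in 300 bases, but only 0.538 times the CpGs its base composition would give. Over the whole peaks the contrast held. The Mef2a peak had 66.7% G and C, 44 CpGs, 10.7 CpGs per 100 bases and an observed over expected value of 0.977. The Ywhaz peak had 76.9% G and C, 30 CpGs, 8.15 CpGs per 100 bases and an observed over expected value of 0.558. Among the 213 peaks of chromosomes 1 to 19 and X, whose medians were 68.4% G and C and 0.840, Ywhaz ranked high for G and C (13 peaks had more) and low for CpG retention (177 peaks had a higher value). The repeat-masked share was 6.57% at Mef2a and 12.0% at Ywhaz. Every 50-base word of both peaks (362 at Mef2a and 319 at Ywhaz) occurred once in the chromosomes and the mitochondrial genome, so tags of 50 bp could be placed at both.

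The Mef2a peak sat on the transcription start of its gene. Mef2a lies at chr7:67231163-67372858 on the minus strand, and the peak covered chr7:67372707-67373117 (411 bp) with its summit at base 67372832. The summit was 26 bp inside the gene from the start site shared by 6 transcripts (Mef2a-201, Mef2a-202, Mef2a-203, Mef2a-204, Mef2a-205 and Mef2a-208) and 5 bp before the start of Mef2a-207. The peak held 259 bases upstream of the main start and 152 bases past it, and the whole first exon (146 bp) lay inside it. The deposited annotation placed the peak in the 5′ UTR. The first exon is non-coding, and the nearest start codon was 55987 bp further along the gene.

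The Ywhaz peak sat in an intron between alternative starts. Ywhaz lies at chr15:36770770-36796929 on the minus strand, and the peak covered chr15:36792803-36793170 (368 bp) with its summit at base 36793022. The annotated 5′ ends around it spread over several kilobases. The summit was 188 bp past the start of Ywhaz-206, 497 bp past that of Ywhaz-207, 815 bp past that of Ywhaz-204 and 608 bp before that of Ywhaz-205. The starts of Ywhaz-203, Ywhaz-201 and Ywhaz-202 lay 1509, 1516 and 1525 bp upstream of the summit, and the outermost start, of Ywhaz-208 and Ywhaz-209, lay 3907 bp upstream. Only 3 bases of the peak overlapped an exon, the first of Ywhaz-206. The nearest start codon was 2045 bp past the summit. Most intronic peaks of the list were of the same kind in this respect: 36 of 47 (76.6%) had a summit within 1 kb of a protein-coding start. This is near the share of all peaks of chromosomes 1 to 19 and X, 154 of 213 (72.3%). Of the peaks in a 5′ UTR it was 33 of 35.

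**Figure D1:**
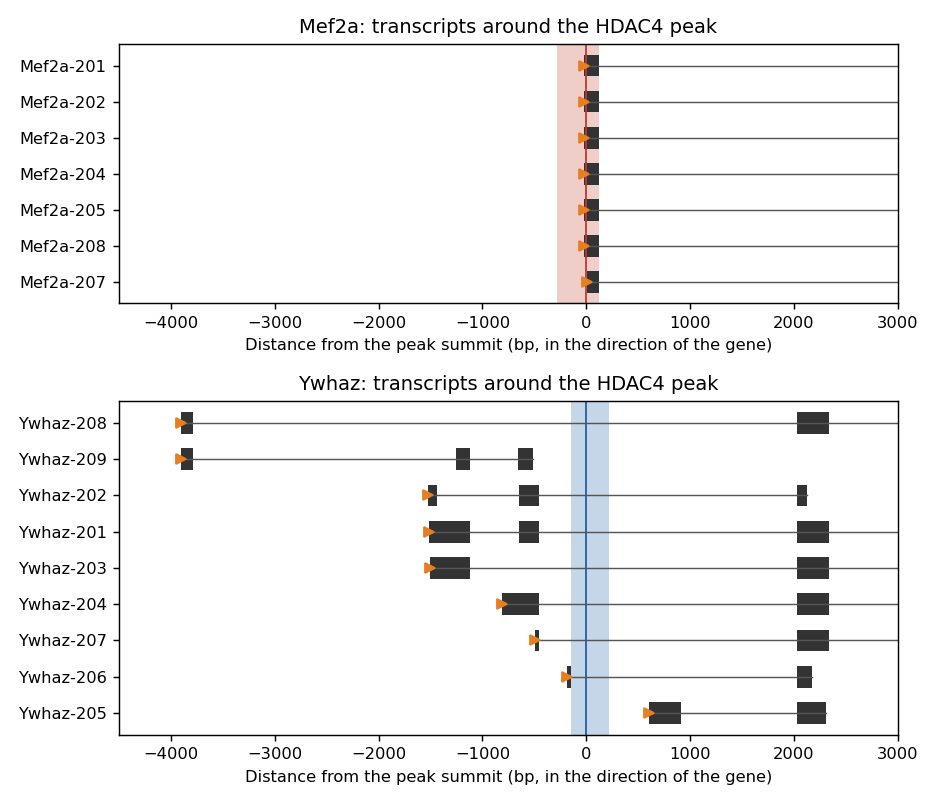
Annotated transcripts of Mef2a (top) and Ywhaz (bottom) that reach the region of each peak, 1 per row, against the distance from the peak summit in bp along the gene. Boxes are exons, lines are introns, orange triangles are transcription starts, the shaded band is the peak and the vertical line its summit. The Mef2a band covers the first exon of every row, and the Ywhaz band lies in introns between the start 188 bp upstream of the summit and the start 608 bp downstream.

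The 2 peaks also sat differently in the CpG-rich DNA around them. Counted in steps of 100 bp, the densest step at Mef2a held 18 CpGs and began at the summit itself. At Ywhaz the densest step held 19 CpGs and was centred 750 bp upstream of the summit, between the start sites of Ywhaz-204 and Ywhaz-207. The step just upstream of the Ywhaz summit held 7 CpGs and the step just downstream 11.

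**Figure D2:**
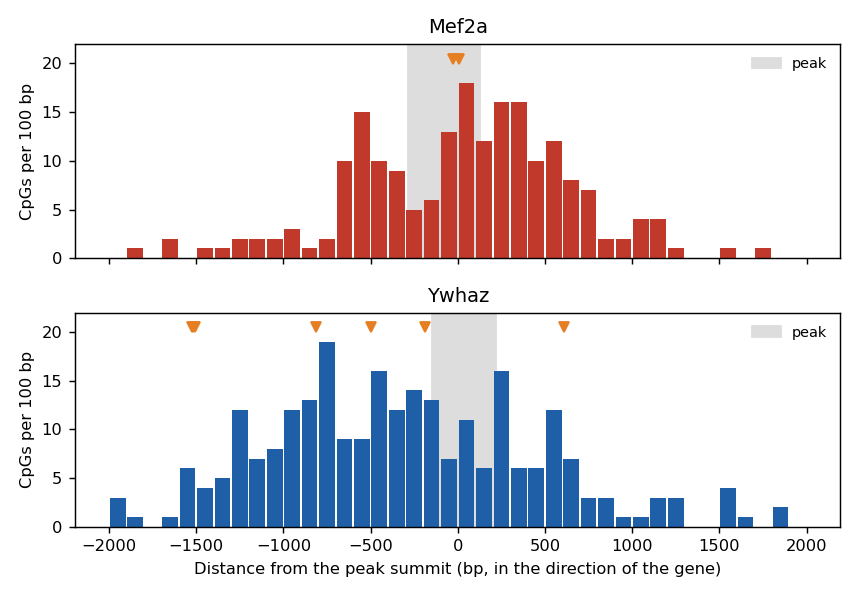
Number of CpGs in each step of 100 bp against the distance from the peak summit in bp along the gene, for Mef2a (top, red) and Ywhaz (bottom, blue), with the peak shaded grey and orange triangles at annotated starts. The densest step touches the summit at Mef2a (18 CpGs) and lies 750 bp upstream of it at Ywhaz (19 CpGs).

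In the deposited values the Mef2a peak had the higher fold enrichment, and the pileups differed by a single tag. The pileup, counted as ChIP fragments that cover the summit, was 14 tags at Mef2a (exact Poisson 95% interval 7.65 to 23.5) and 15 tags at Ywhaz (8.40 to 24.7). The difference was 1 tag, well within the counting error. These intervals cover counting error only, since no second library was made. They do not allow for the choice of the summit as the highest point of a called peak. Repeated positions had been collapsed to 1 tag before the pileup was counted. The fold enrichment, (pileup + 1) / (local input background + 1), was 9.11 at Mef2a and 6.47 at Ywhaz, a ratio of 1.41. With the pileup at the ends of its interval the fold ran from 5.25 to 14.9 at Mef2a and from 3.80 to 10.4 at Ywhaz. These ranges overlapped, and they hold the background fixed, so its own counting error is left out. Against the genome background, the same for both genes, the order was that of the pileups by definition and so turned (11.5 at Mef2a and 12.3 at Ywhaz). Without the added 1 the fold of Mef2a was 21.6. With the input scaled by all tags the folds were 3.38 and 1.81. The ChIP pileup stayed that of the collapsed tags there, so the 2 terms of the ratio rest on unlike sets of tags. The deposited −log10 p was 15.2 and 11.2, and the −log10 q, adjusted over the genome, was 10.2 and 6.39.

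In these values the higher fold of Mef2a went with a lower input background, not with more ChIP tags. The background recovered from the deposited pileup and fold was 0.647 tags at Mef2a and 1.47 at Ywhaz, both scaled to the ChIP library, a ratio of 2.28. On the scale of the fold, with 1 added to each, the input term was 1.50 times higher at Ywhaz, while the ChIP term at Mef2a was 0.938 times that at Ywhaz. Given the background of Mef2a, the 15 tags of Ywhaz would have had a fold of 9.71, and given that of Ywhaz, the 14 tags of Mef2a a fold of 6.06.

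The backgrounds could be traced to whole input tags. MACS, the peak caller, takes the highest of the input densities in a window as long as a fragment (297 bp), in 1 kb, in 10 kb and over the genome. At Mef2a the value was that of 6 input tags within the 297-bp window (Poisson 95% interval 2.20 to 13.1), or 20.2 tags per kb (7.41 to 44.0), and the wider windows did not exceed this density. At Ywhaz it was 46 input tags per kb, from either 46 tags in the 1-kb window (33.7 to 61.4 per kb) or 460 tags in the 10-kb window (41.9 to 50.4 per kb), which cannot be told apart from the deposited values. The intervals per kb of the 2 genes overlapped, but they come from windows of unlike width, and overlap does not show that the backgrounds were equal. In the 1-kb and 10-kb windows the density at Mef2a was at most 20.2 tags per kb. At Ywhaz the one that gave the background held 46 per kb, and the difference was not tested. The Ywhaz background thus came from a wider stretch of DNA than its peak, and that of Mef2a from a window the size of a fragment. The genome background was 0.305 scaled tags (9.52 input tags per kb), and the local values were 2.12 times this at Mef2a and 4.83 times at Ywhaz. Of the 229 peaks, 126 had a background of whole input tags in the 297-bp window only. At 76 it was whole in both the 1-kb and 10-kb windows, which cannot be told apart where the 1-kb count is whole.

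**Figure D3:**
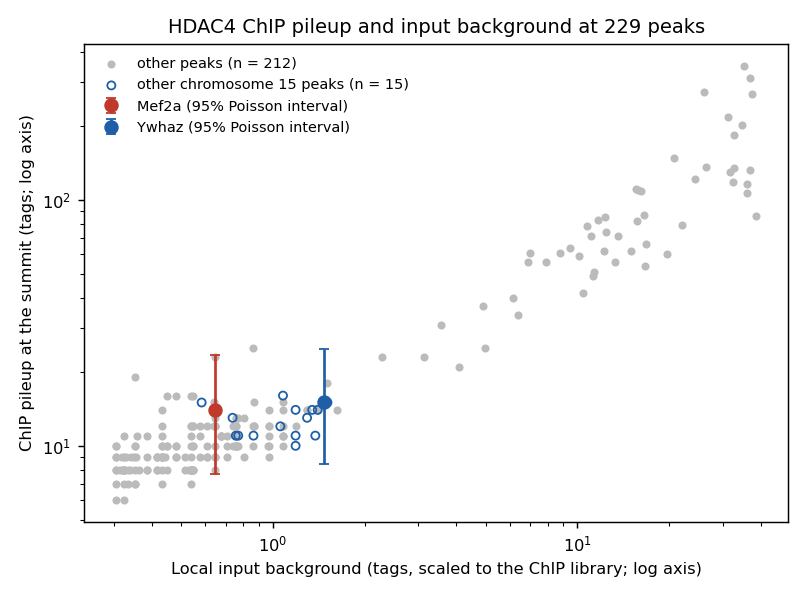
ChIP pileup at the summit in tags against the local input background in tags scaled to the ChIP library, both on log axes, for 229 peaks. Red and blue points are Mef2a and Ywhaz with exact Poisson 95% intervals of the pileup, open circles are the other 15 peaks of chromosome 15 and grey points the remaining 212 peaks. The 2 genes are level in pileup (14 and 15 tags), and Ywhaz lies further right (1.47 against 0.647 scaled tags).

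Within the list neither gene stood at an extreme. By fold Mef2a ranked 13 and Ywhaz 130 of 229, against a median fold of 6.72 over all peaks. Their ranks by pileup were close, 68 and 62, and both exceeded the median of 11 tags. By background Ywhaz ranked 56 and Mef2a 122, and by −log10 q Mef2a ranked 55 and Ywhaz 112. The lowest −log10 p on the list was 6.96. With its own background Mef2a would have needed 8 tags to reach it, 6 fewer than it had, and Ywhaz 11 tags, 4 fewer than it had.

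By definition, peaks with the same number of tags differ in fold only through their background, and the spread of the fold is given here. The 12 peaks of chromosomes 1 to 19 and X with 14 tags, Mef2a among them, had folds from 5.73 to 10.5 (median 6.70). The 6 peaks with 15 tags, Ywhaz among them, had folds from 6.37 to 10.1 (median 8.14). Mef2a was thus above and Ywhaz below the median of its own tag class. Next to Mef2a in the order of fold, the peak upstream of Pomt1, a protein O-mannosyltransferase, had exactly the same 14 tags, 6 input tags and fold of 9.11. The peak above these, intergenic and labelled Lrrc4c in the deposited annotation, had 351 tags and a fold of 9.73, and the peaks just below, in Zfp358 and Stard10, had 12 and 11 tags and folds of 9.08 and 9.07. The peaks just above Ywhaz, in Tmem183a and Cacna2d2, had 8 and 9 tags and a fold of 6.50 each. The peaks just below, in the spermidine synthase gene Srm and in an intergenic place on chromosome 9, had 10 and 85 tags and a fold of 6.45 each. A similar fold therefore stood for anything from 8 to 85 tags around Ywhaz.

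The peaks of chromosome 15 had a higher input background than those of chromosome 7, as Ywhaz had against Mef2a, but unlike these genes they also differed in pileup. Chromosome 7 held 13 peaks and chromosome 15 held 16. The 12 other peaks of chromosome 7 had a median background of 0.354 scaled tags (0.305 to 1.08), and the 15 others of chromosome 15 a median of 1.19 (0.583 to 1.51). The ranges overlapped, but the lowest background of chromosome 15 exceeded the chromosome 7 median. The median over all 229 peaks was 0.673. The other peaks of chromosome 15 also had more ChIP tags (median 13, range 10 to 16) than those of chromosome 7 (median 8.5, range 6 to 14). A peak on a higher background needs more tags to be called, so among called peaks pileup and background are not independent. The median folds of the other peaks were 6.39 on chromosome 15 and 6.80 on chromosome 7.

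Against its own chromosome each gene looked different than against the whole list. Mef2a had the highest fold of chromosome 7 (others 5.29 to 9.07), shared the highest pileup with Kmt2b, a histone H3 methyltransferase gene, and was 3rd by background. It also had the highest fold of the 35 peaks in a 5′ UTR. Ywhaz shared the 2nd highest pileup of chromosome 15 with Eef1d and Prickle1 and was 2nd by background, but 7th by fold (others 5.03 to 10.1), close to the chromosome's median. Its 46 input tags per kb stood beside 47.1 at the peak in Eef1d, a translation elongation factor gene with 15 tags and a fold of 6.37. Both genes stood apart from other peaks. The nearest ones on chromosome 7 were those in Ctu1 and Cemip, 23697397 and 16713818 bp from the Mef2a summit, and on chromosome 15 those in Mtdh and Rims2, 2710039 and 2405824 bp from the Ywhaz summit.

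**Figure D4:**
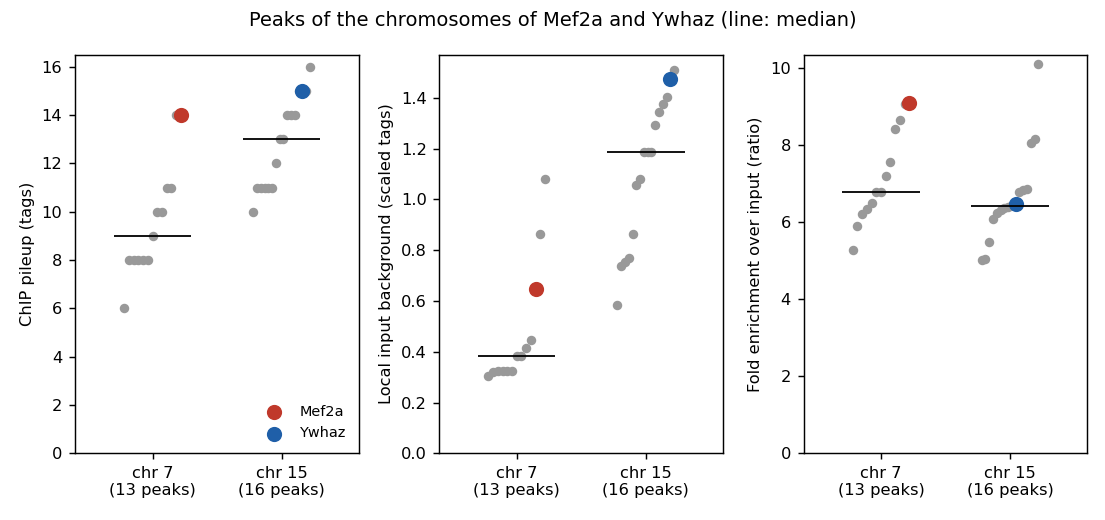
ChIP pileup in tags (left), local input background in scaled tags (middle) and fold enrichment as a ratio (right) for the 13 peaks of chromosome 7 and the 16 of chromosome 15, 1 point per peak. Red and blue points are Mef2a and Ywhaz, grey points the other peaks and black lines the medians of all peaks of the chromosome. Ywhaz is 2nd in pileup (15 tags, a tie) and in background on its chromosome and near the median in fold, and Mef2a has the highest fold of its chromosome.

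A MEF2 site lay at the start of Mef2a. The site, CTAAAAATAG at chr7:67372851-67372860, ran from base −2 to base 8 relative to the main start (+1 being the first transcribed base) and from 28 to 19 bp before the summit. A MEF2 site, the A- and T-rich sequence that MEF2 factors bind, was searched on both strands in 300 bp around each summit. It was present in 6 of 221 peaks (2.71%), of which 3 were in the mitochondrial genome, and in 3.19% of 32851 RefSeq promoters of the same length. On chromosomes 1 to 19 and X it was in 3 of 213 peaks (1.41%), and none was found at Ywhaz. The 3 were the peaks of Mef2a and AI839979 and an intergenic peak labelled Grasp in the deposited annotation. The summit of the peak labelled Grasp lay 167 bp upstream of a protein-coding start of Nr4a1. A match is a description of the letters, and HDAC4 or MEF2 binding to it was not tested.

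Both windows held a GC box, and an E box was found only at Ywhaz. The GC box (GGGCGG) occurred 2 times in the 300 bp around the Mef2a summit and 1 time around that of Ywhaz, and in 55.2% of peaks and 35.7% of promoters. Within the peak, the Mef2a box ran from base 71 to base 76 past the start. An E box (CANNTG, the type of site bound by MyoD and other basic helix-loop-helix factors) occurred 1 time around the Ywhaz summit and not around that of Mef2a, against 62.0% of peaks and 72.3% of promoters. The whole Ywhaz peak held 2 E boxes and the whole Mef2a peak 0. Neither window held an ETS core (CCGGAAG), a CRE (TGACGTCA), a CCAAT box, a YY1 core (AAGATGG) or an NRF1 core. Nor did either hold a core promoter box of the letters TATAAA or a CArG box, the site of serum response factor. These motifs were in few peaks of the list, from 0% (CRE and CArG box) to 11.8% (CCAAT box). Their absence is therefore no result about the 2 genes.

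Mef2a was the only one of 4 MEF2 genes with a peak, and Ywhaz the only one of 7 14-3-3 genes. Over all 21842 protein-coding genes, 164 (0.751%) were named by a peak that was not intergenic. Both families were taken up because these 2 genes had a row, so the counts are no result about the families. Mef2b, Mef2c and Mef2d had no row in the table, nor did Ywhab, Ywhae, Ywhag, Ywhah, Ywhaq or Sfn, the gene of 14-3-3 sigma. With 1920168 kept ChIP tags, an absent row says only that no peak passed the threshold. The nearest peak to a start of Mef2b lay 81794 bp away, in the 5′ UTR of Sugp2 (18 tags, fold 7.57). For the others the nearest peak was further: 212 kb from Sfn, 295 kb from Ywhae, 466 kb from Ywhab, 479 kb from Mef2d, 1.45 Mb from Ywhah, 3.22 Mb from Ywhag, 9.15 Mb from Mef2c and 14.6 Mb from Ywhaq.

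The 9 genes of the same families without a peak ranged from 28 to 122 CpGs at their starts, on both sides of the median of all genes. In the 1 kb around its most CpG-rich start, Mef2a held 117 CpGs and Ywhaz 118, in percentiles 95.6 and 95.7 of 21829 protein-coding genes with a median of 48. Ywhah held 122, Ywhaq 113, Mef2d 111 and Ywhae 107, all in percentiles of 92.6 or above and with no peak. Ywhab (79) and Ywhag (74) were lower, and Mef2b (50), Mef2c (46) and Sfn (28) lay near or below the median of all genes. Within 150 bp of a protein-coding start, a MEF2 site was found at 1 of 2 starts of Mef2a and at the only start of Ywhah, which had no peak. None was found at the 7 starts of Ywhaz or at those of the other family genes, from 1 start in Sfn to 23 in Mef2c.

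**Figure D5:**
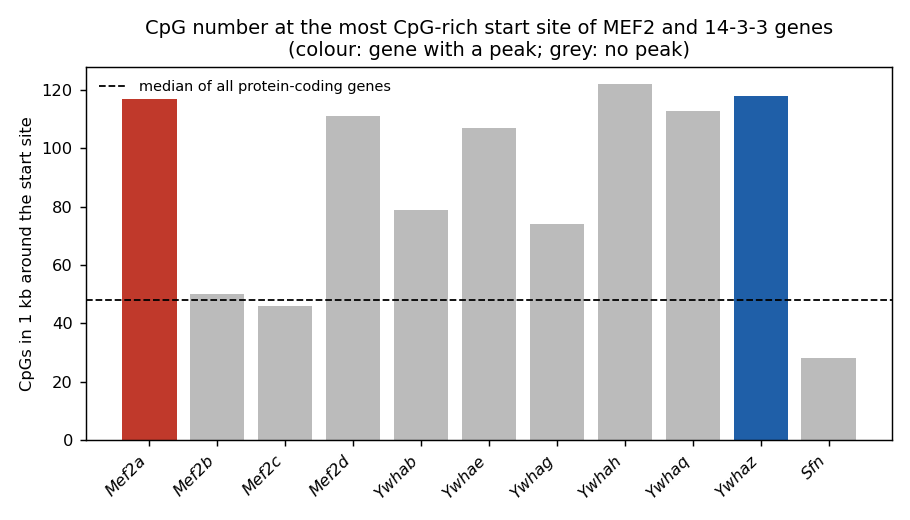
Number of CpGs in 1 kb around the most CpG-rich protein-coding start of each MEF2 and 14-3-3 gene, with bars from 0, coloured for the genes with an HDAC4 peak (Mef2a red, Ywhaz blue) and grey for those without. The dashed line is the median of all protein-coding genes (48), and Ywhah (122) and Ywhaq (113), without a peak, are level with Mef2a (117) and Ywhaz (118).

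None of 82 other genes of the pathway, in 7 lists, was named by a row. With 0.751% of all protein-coding genes named, a count of 0 in 82 is near the background and is no result about these genes. The lists hold the 4 class IIa deacetylases with Hdac4 itself, 6 genes of the HDAC3 corepressor complex that class IIa enzymes recruit, 24 genes of kinases that phosphorylate them, 11 subunits of the phosphatase PP2A that removes the phosphate, 5 nuclear transport genes, 13 other transcription factors that HDAC4 binds and 19 partners of MEF2 such as the MyoD family. The nearest peak to any of them was in an intron of Gpha2, 8967 bp from a start of the PP2A subunit gene Ppp2r5b. Further ones within 100 kb were those of Fut11 (43811 bp from the calmodulin kinase gene Camk2g), Tmem183a (71721 bp from Myog, the myogenin gene), Smurf2 (77768 bp from the importin gene Kpna2) and Phf23 (81188 bp from the corepressor gene Gps2). Over all protein-coding genes, 4.26% had a summit within 100 kb of a start, 1.07% within 10 kb and 0.765% within 1 kb.

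The other deposited table of the same peaks carries handwritten notes beside 166 of its 229 rows. It lists both peaks at the same positions. The Ywhaz row was annotated with the gene's name, its protein entry, a description of an adapter protein in signalling, and the Italian words for “does not change”, with no heading that says what was compared. The Mef2a row is one of the 63 with no note.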

How the data were processed

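Reads were handled, as named by the submitters' processing notes, with CASAVA 1.8.2, cutadapt, Bowtie2 and MACS2 on mm10. Per the table header the authors ran MACS 2.1.0.20150316 on the ChIP library against the input (q cutoff 0.01, tag size 50 bp, fragment length 297 bp, effective genome 1870000000 bp), on single libraries. At most 1 tag per position was kept, 1920168 of 10903000 ChIP tags (17.6%) and 17798166 of 19038793 input tags (93.5%). The ChIP library thus lost a larger share of its tags to repeated positions than the input, and the kept ChIP tags leave few per peak. The deposited annotated table gives the pileup signal in tags, the fold (a ratio with 1 added to both terms), −log10 p and −log10 q. Its annotation tool is not given in the sources used here. In contrast, the other deposited table holds the same values as damaged scores and was read only for notes and positions.

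The background was computed as (pileup + 1) / fold − 1 and divided by the ratio of kept tags (0.108) to give input tags, and a window was assigned where tags were whole within 0.005. A Poisson model returned the deposited −log10 p within 0.000142. Gene models, starts and sequence came from GRCm38.p6. Sequence counts exclude 8 peaks of unplaced sequences. Coordinates are 1-based. The members and gene lists were chosen with earlier results of these data known. Named genes were both members, their families, listed genes with a row, and neighbours by fold and by position. No test was made. Scripts were tested on simulated data. Software comprised scipy 1.17.1, pandas 2.3.3, numpy 2.4.6, pysam 0.24.0 and matplotlib 3.10.9 under Python 3.11.15.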

Additional observations from a re-analysis of the deposited data

How the results depend on the processing

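With no pseudocount the fold was 21.6 at Mef2a and 10.2 at Ywhaz. Against the genome background it was 11.5 at Mef2a and 12.3 at Ywhaz, which turned the order of the genes. With the same background for both, the order is that of the pileups by definition. With the input scaled by all tags before the limit of 1 per position, while the ChIP pileup stayed that of the kept tags, the fold fell to 3.38 at Mef2a and 1.81 at Ywhaz. In unscaled input tags per fragment window the background was 6 at Mef2a and 13.7 at Ywhaz. Exchanging the backgrounds of the peaks, an alternative chosen after seeing the data, gave 6.06 at Mef2a and 9.71 at Ywhaz and also turned the order. As the pileups differed by 1 tag, this turn follows from the definition of the fold and is no check of it. The count of MEF2 genes was 1 at a −log10 q of at least 5, at a fold of at least 5 and with a summit within 1 kb or 10 kb of a start, and 2 within 100 kb. For 14-3-3 genes it was 1 under all of these. For the 93 genes of all lists it was 2 under the stricter thresholds and within 1 kb, 3 within 10 kb and 8 within 100 kb. Over all 21842 protein-coding genes the share was 0.765% within 1 kb, 1.07% within 10 kb and 4.26% within 100 kb. The lists include the 2 genes chosen for their rows, so these counts are no result about the lists.

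No paired analysis was possible because there is 1 ChIP and 1 input library, and there was no replicate to leave out. The spread between cultures is unknown, and an IgG library was not analysed here. Peaks of fewer tags than the threshold needs are missed with this number of kept ChIP tags.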
